A study of Canis lupus familiaris with 5 samples.

Results

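A vein that serves as an arterial bypass is distended while it is harvested and is then joined to an artery, where it meets arterial pressure and flow. Nuclear RNA of 1 canine cephalic vein graft, collected 24 h after carotid bypass, is set here against 2 libraries of control vein. These are 3 of the 5 libraries of the series and hold 4519 of its 6868 nuclei. They were taken by their labels (grafted or control), and each barcode with 100 or more detected features was kept as a nucleus. The dogs were male mongrels of 25 kg. Control segments came from dogs 1 and 2 and were not distended, and 1 library came from each. The graft came from dog 1 and had passed through distension with injected saline that held papaverine, a smooth muscle relaxant, and bivalirudin, a thrombin inhibitor. Bivalirudin was also given systemically before the graft was sewn in. Distension, drug exposure, implantation and the 24 h that followed thus all separate the graft from the controls and cannot be told apart, and the graft has no replicate.

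The vein wall has an endothelium that keeps blood from clotting and from adhering, a media of contractile smooth muscle and an adventitia of fibroblasts in collagen. Venous grafts are known to lose part of their endothelium and smooth muscle early, to take up leukocytes and to lay down matrix later as their cells divide. The features below are therefore ordered by role: inflammatory signals and adhesion, clotting and proteolysis, cell division and stress, then the genes of endothelium, smooth muscle and matrix.

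The graft was far deeper than the controls. After 4 dominant features and the unassigned ones were left out, control dogs 1 and 2 had 773 and 1041 nuclei with 500464 and 339917 UMIs, medians of 421 and 274 UMIs per nucleus. The graft had 2705 nuclei with 10899093 UMIs, a median of 2350. A single UMI was therefore worth 2.00 and 2.94 CPM (a feature's UMIs scaled to a total of 1000000 used UMIs) in the controls and 0.0918 CPM in the graft. A count of 0 allows up to 5.99 CPM in control dog 1, 8.83 CPM in control dog 2 and 0.275 CPM in the graft. The 4 dominant features, LOC119877772 to LOC119877775, took 65.1% and 57.7% of all control UMIs and 2.98% of graft UMIs. At the limit of 100 features, 275 and 193 control barcodes fell short, the nearest at 99 features, while 0 of the graft did, whose lowest nucleus had 176. The graft shared 3 barcodes with control dog 1 and 0 with control dog 2. In sums over a library, fewer nuclei of a type and less RNA per nucleus cannot be told apart.

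Before the genes, 1 group of graft nuclei has to be named, because several results turn on it. Joint clustering of the 3 libraries gave 11 clusters, of which 4 stayed without a cell type name. Cluster 6 held 250 graft nuclei (9.24%, 95% exact interval 8.18 to 10.4), 1 nucleus of control dog 2 and 0 of control dog 1. Its median was 4639.5 UMIs, and it held 29.8% of the graft's UMIs. Ribosomal protein transcripts made up 18.5% of its UMIs, against 0.338% to 11.6% in the other clusters, and its leading genes were RPL15, RPL9, RPS12, ACKR1, RPS27A and RPLP1. It is called the ribosome-rich cluster below. Nearly all of it is 1 library, so it may be that library and not a cell type. Without it, ribosomal protein genes made up 0.804% of the graft's UMIs in place of 6.09%, which lies between the controls (2.74% and 0.486%). Endothelial-like cluster 5, the next richest at 11.6%, held 15 nuclei of control dog 1 (median 5429 UMIs) and 0 of control dog 2 and the graft. Those nuclei stay in the control sums, so levels without the ribosome-rich cluster set a trimmed graft against an untrimmed control dog 1. Each main result is given with the ribosome-rich cluster and, where it matters, without it, an alternative chosen after the data were seen.

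Of 35527 features used, 10559 were compared, those whose average of the graft level and the mean control level was at least 10 CPM. A feature counts as past 4-fold when the graft lay at least 4-fold above the higher control or at least 4-fold below the lower one. By that rule 837 of 10559 features (7.93%) stood higher in the graft and 439 (4.16%) stood lower. The higher ones held 10.2% of graft UMIs against 1.19% and 0.922% in the controls, and the lower ones 0.926% against 8.75% and 10.1%. At any fold, 46.7% of compared features lay above both controls and 30.7% below both, and such counts for lists below stand beside these shares. The controls themselves stood 4-fold or more apart at 985 features (9.33%). The median log2 of graft over pooled control was 0.21, against a median absolute log2 of 0.66 between the 2 controls. Against control dog 2 alone the counts were 1557 and 1105, and against control dog 1, the graft's own animal, 1271 and 716. Without the ribosome-rich cluster they were 816 and 399, of which 577 and 330 were among those found with it.

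**Figure D1:**
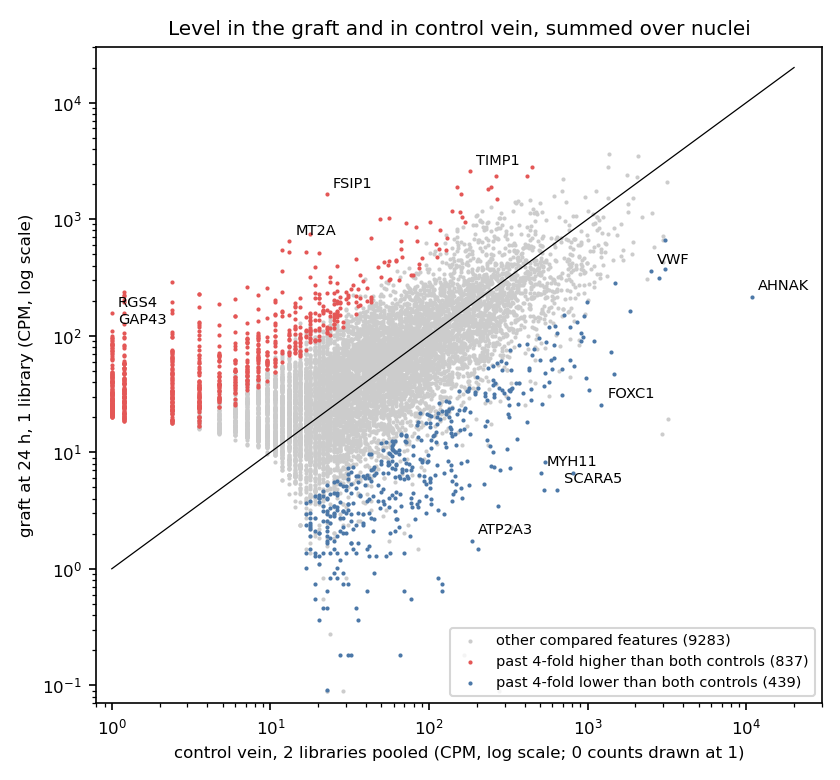
Level of 10559 compared features in the graft (1 library, y axis, CPM, log scale) against the 2 control libraries pooled (x axis, CPM, log scale), summed over nuclei; the line marks equal levels. Points in red (837) lie past 4-fold above both controls and points in blue (439) past 4-fold below both; FSIP1 and TIMP1 stand at the upper edge, AHNAK, FOXC1 and MYH11 far below the line.

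Scaling bears on all levels. With TMM factors the median of all compared features moved from 0.21 to 0.45, and higher features made up 76.2% of those past 4-fold in place of 65.6%. With the 4 dominant features kept in the totals, every log2 value shifts up by 1.65. Of 9196 features then compared, 3528 stood past 4-fold higher and 58 lower, and higher features made up 98.4% of those past 4-fold. List counts given below for that scaling stand beside this share of all features. The 12 genes ranked highest and the 12 ranked lowest stayed past 4-fold under that scaling too. All values below use totals without the dominant features, and a direction is relative to those totals.

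With 1 graft, a test has to borrow its error from the other libraries. edgeR's quasi-likelihood test over all 5 libraries, including 2 of distended vein (dogs 1 and 2, distended and not implanted), called 0 of 10648 features (0%) at an adjusted p of 0.05, with a smallest adjusted p of 0.607, and 813 (7.64%) had an unadjusted p under 0.05. Without distended dog 1 it called 289 higher and 240 lower, and without distended dog 2 it called 268 and 203. DESeq2 called 27 higher and 77 lower of 10678 (0.974%). DESeq2 tested the same library sums by which the genes ranked highest and lowest were picked, so its calls among them are no separate support. What follows is therefore a description of levels. Fold intervals are exact 95% counting intervals of the graft against the pooled controls and hold no variation between animals.

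The genes ranked highest in the graft, by the lower bound of that interval, were led by FSIP1, TFPI2 and RGS4. FSIP1, named for the fibrous sheath of sperm, stood at 34.0 and 5.88 CPM in control dogs 1 and 2 and 1650.1 CPM in the graft, a ratio of 73.0 (46.7 to 121). TFPI2, a Kunitz-type inhibitor of serine proteases in the matrix, stood at 2.00 and 0 CPM in control dogs 1 and 2 and 237 CPM in the graft, with 1 control UMI in all (ratio 199, 35.7 to 7876). RGS4, which shortens G protein signals, had 0 control UMIs and stood at 157 CPM in the graft, at least 43.9-fold above a floor of 3 counts over both controls. All 3 lay far outside the range of the controls. Taken against each control alone, the ratio of FSIP1 was 48.6 for dog 1 and 280.5 for dog 2. TFPI2 was at least 26.9-fold higher than dog 2, where it had 0 UMIs, and RGS4 at least 26.1-fold and 17.8-fold higher than dogs 1 and 2.

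Further down that ranking came genes of metabolism, metal handling and cell shape. BCAT1, the cytosolic aminotransferase of branched-chain amino acids, stood at 0, 5.88 and 286 CPM in control dog 1, control dog 2 and the graft. In the same order, the metallothionein MT2A, which binds zinc and copper, stood at 9.99, 17.7 and 648 CPM. The nucleoside diphosphate kinase NME1 stood at 2.00, 0 and 223 CPM, and at 229 CPM in distended vein of dog 2, about the level of the graft. MMD, a membrane protein first described in maturing macrophages, stood at 18.0, 17.7 and 744 CPM. These 4 genes were at or under 18.0 CPM in both controls. PHLDA1, a pleckstrin homology-like protein induced by growth factors, stood at 5.99, 20.6 and 538 CPM, and MYO10, the myosin of filopodia tips, at 5.99, 23.5 and 521 CPM. The growth cone protein GAP43 and the receptor tyrosine kinase LTK each had 0 control UMIs, against 111 and 86.3 CPM in the graft, at least 31.0-fold and 24.2-fold higher. KCNH1, a voltage-gated potassium channel, had 3 control UMIs and 2476 in the graft (ratio 63.6, 21.8 to 309). DESeq2 called FSIP1, TFPI2, RGS4, BCAT1, MMD, GAP43, PHLDA1, MYO10 and KCNH1 (adjusted p from 0.00334 to 0.0259), and edgeR called none of the 12 (adjusted p 0.607 each).

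**Figure D2:**
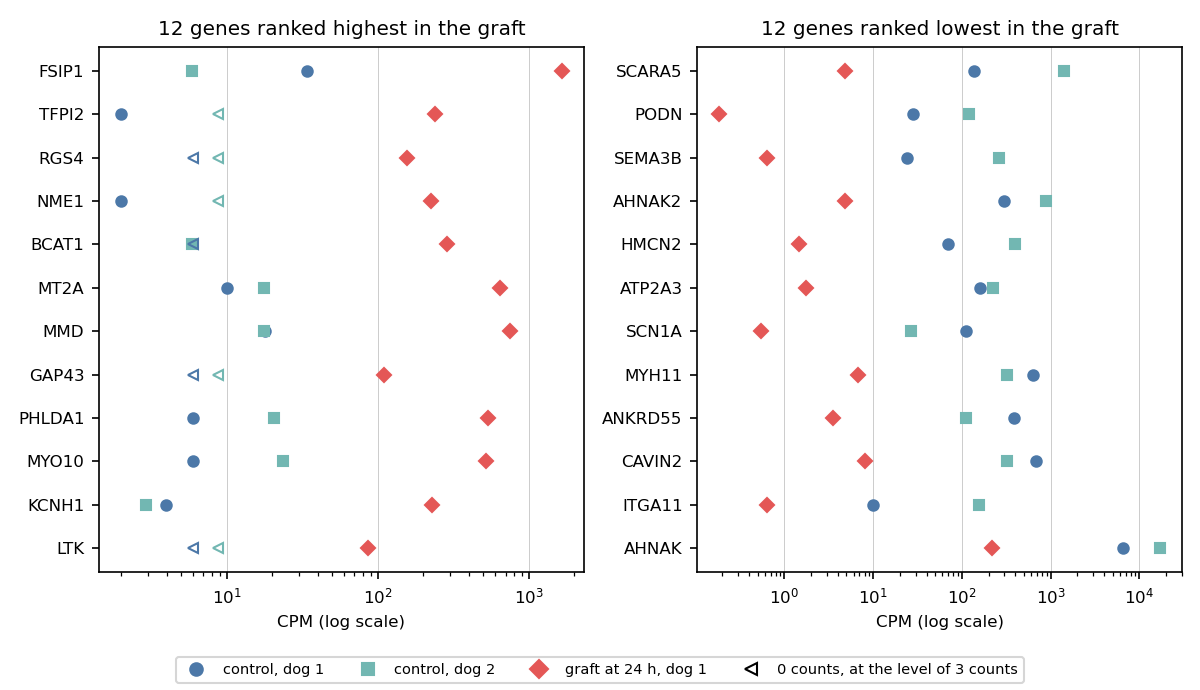
Levels of the 12 genes ranked highest (left) and the 12 ranked lowest (right) in the graft, in CPM on a log scale, for control dog 1 (circles), control dog 2 (squares) and the graft (diamonds); open triangles mark 0 counts, drawn at the level of 3 counts in that library. In the 24 genes drawn here, the graft lies outside the range of the controls, from 86.3 CPM for LTK to 1650.1 CPM for FSIP1 on the left.

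The largest gains in level, graft minus mean control, belonged to TIMP1, GLIS3, THBS1, ACKR1 and RPS20. TIMP1, the tissue inhibitor of metalloproteinases, stood at 292 and 17.7 CPM in control dogs 1 and 2 and 2568 CPM in the graft. ACKR1, the chemokine-binding Duffy receptor of venules, stood at 229.8, 32.4 and 1902 CPM, and THBS1, which encodes thrombospondin-1, at 553, 206 and 2351 CPM in the same order. The ribosome-rich cluster held 92.7% of the graft's TIMP1 UMIs, 93.7% of ACKR1, 92.5% of RPS20 and 65.9% of THBS1. Without that cluster TIMP1 stood at 268, ACKR1 at 171 and RPS20 at 204 CPM, each between the 2 controls, and THBS1 at 1142, above both but no longer past 4-fold. GLIS3, a zinc finger transcription factor, differed from the other 4: it stood at 204, 350.1 and 2367 CPM and at 3096 CPM without the cluster. Control dog 1 had more of TIMP1, ACKR1, THBS1 and RPS20 than control dog 2. Against dog 1 alone the ratio of TIMP1 was 8.80, and against dog 2 it was 146. For ACKR1 the 2 ratios were 8.28 and 58.8, for THBS1 4.25 and 11.4, and for RPS20 5.46 and 20.2. High RPS20 was not limited to the graft, since distended vein of dog 2, which was not implanted, stood at 2926 CPM.

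Among the 12 genes ranked highest, the graft nuclei behind the UMIs fell into 3 patterns. Fibroblast-like nuclei of cluster 9 (806 graft nuclei with 16.2% of graft UMIs, led by PTX3 and GPC6) held 85.8% of GAP43, 83.0% of KCNH1, 72.7% of TFPI2 and 52.8% of MYO10. Cluster 9 had 9 of 15 fibroblast markers and 6 of 10 pericyte markers, and its name follows the larger number of markers. Endothelial-like nuclei of cluster 4 (1025 nuclei with 41.4% of graft UMIs, led by SLCO2A1 and SSBP2) held 63.2% of LTK, 57.4% of RGS4 and 48.8% of BCAT1. The ribosome-rich cluster held 95.4% of NME1, 78.9% of MT2A, 77.4% of MMD, 57.2% of FSIP1 and 54.0% of PHLDA1. Without that cluster NME1 stood at 14.6 CPM, and its average over graft and controls lay under the 10 CPM needed to be compared. MT2A, MMD, FSIP1 and PHLDA1 stood at 195, 239, 1007 and 353 CPM and were still past 4-fold. The clusters were built from these same genes, and clusters 4, 6 and 9 hold few control nuclei, so the pattern describes this 1 graft.

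**Figure D3:**
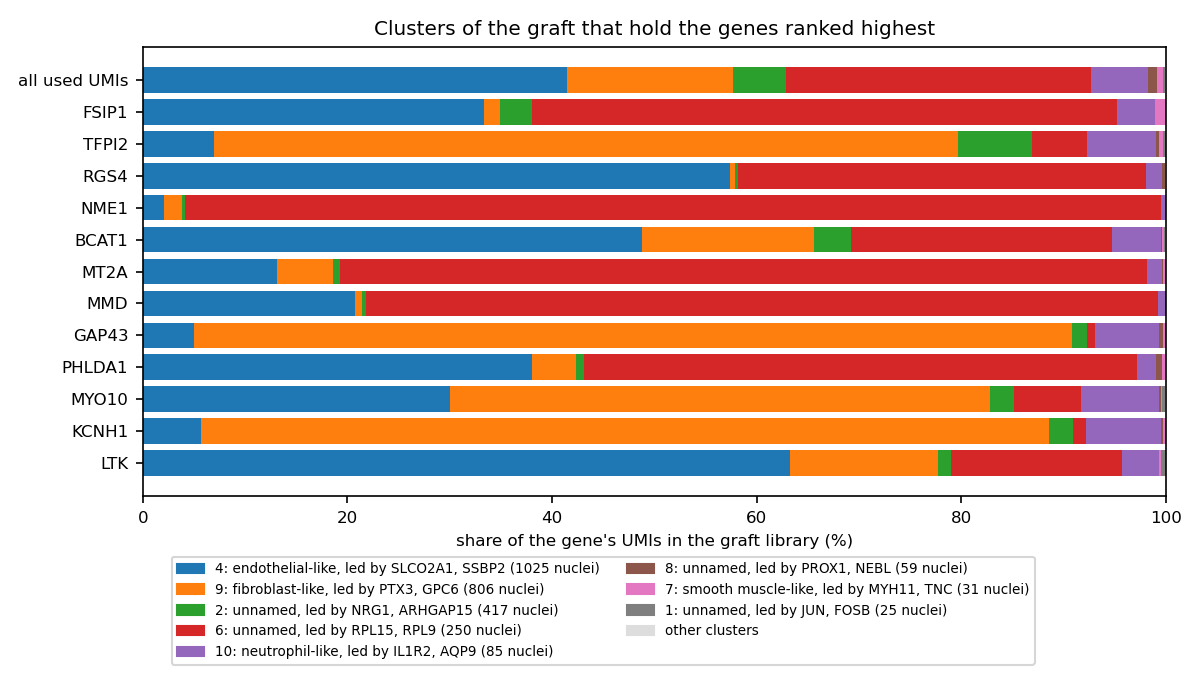
Share of each gene's graft UMIs (x axis, %) that lies in each cluster of nuclei, for the 12 genes ranked highest, with all used UMIs as the top bar; colours stand for clusters and the legend gives their name, leading genes and graft nuclei. GAP43, KCNH1 and TFPI2 lie mostly in fibroblast-like cluster 9, NME1 and MT2A mostly in unnamed cluster 6.

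Shares of nuclei with a UMI come from the same counts, for genes picked by their graft level, and are no separate support. They ordered the genes otherwise: TFPI2 and RGS4, near the top of the ranking, were seen in 26.4% and 11.5% of graft nuclei. MYO10 was seen in 0.388% and 0.768% of control nuclei and 56.3% of graft nuclei, and FSIP1 in 1.03%, 0.192% and 51.2%. With each nucleus thinned to 200 UMIs, MYO10 stood at 0.304%, 0.801% and 12.9%, and FSIP1 at 0.304%, 0.134% and 15.4%. Thinning left out 116 and 292 control nuclei and 1 graft nucleus. The graft stayed above both controls for the 12 highest genes and below both for the 12 lowest, thinned or not.

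On the lower side, the strongest ratios came from genes of fibroblasts, endothelium, smooth muscle and large scaffold proteins. SCARA5, a ferritin receptor of adventitial fibroblasts, stood at 136 and 1394 CPM in control dogs 1 and 2 and 4.77 CPM in the graft, a level 135 times lower (102 to 183). Most of its control UMIs were in dog 2, and against dog 1 alone it was 28.5 times lower. PODN, a small leucine-rich proteoglycan of the vessel wall, had 2 graft UMIs and stood at 28.0, 121 and 0.184 CPM (357 times lower, 94.2 to 3019). The secreted guidance protein SEMA3B stood at 24.0, 262 and 0.642 CPM, the basement membrane protein HMCN2 at 69.9, 397 and 1.47 CPM, and ITGA11, a collagen-binding integrin subunit, at 9.99, 156 and 0.642 CPM. All 5 were more abundant in control dog 2 than in control dog 1, and the graft lay below both. Against control dog 1 alone, SEMA3B, HMCN2 and ITGA11 were 37.3, 47.6 and 15.6 times lower.

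ATP2A3, the calcium pump of the endoplasmic reticulum known as SERCA3, had close levels in the 2 controls. It stood at 159.9 and 224 CPM in control dogs 1 and 2 and 1.74 CPM in the graft, 106 times lower (65.9 to 182). CAVIN2, which shapes caveolae in endothelium, stood at 679, 324 and 8.17 CPM, the sodium channel SCN1A at 112, 26.5 and 0.551 CPM, and ANKRD55, an ankyrin repeat protein, at 384, 112 and 3.49 CPM. For these last 3 control dog 1 was the higher control. Its ratios to the graft were 83.2, 203 and 110, and those of dog 2 39.6, 48.1 and 32.1. DESeq2 called all but SEMA3B and ITGA11 of the 12 genes ranked lowest, with adjusted p from 7.35e-05 for ATP2A3 to 0.00358 for HMCN2.

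The largest losses in level belonged to AHNAK, SYNE2, SRRM2, DST and PTPRB. AHNAK, a giant scaffold protein under the cell membrane, was the most abundant of them and stood at 6572 and 17034 CPM in control dogs 1 and 2 and 216 CPM in the graft. Its relative AHNAK2 stood at 298, 883 and 4.77 CPM. SYNE2, a nesprin of the nuclear envelope, stood at 3421, 2539 and 370.2 CPM, the splicing protein SRRM2 at 2140, 4204 and 658 CPM and the cytoskeletal linker DST at 2711, 3551 and 658 CPM. PTPRB, the endothelial phosphatase VE-PTP, stood at 3195, 2259 and 313 CPM. AHNAK was low in the graft's endothelial-like and fibroblast-like nuclei alike, at 155 and 205 CPM, against 6081 and 12787 CPM in control dog 1 and 15286 and 21283 CPM in dog 2. These names cover different clusters: control nuclei so named lay mostly in clusters 0 (endothelial-like) and 3 (fibroblast-like), while graft nuclei lay in clusters 4 and 9. AHNAK2 was among the leading genes of cluster 3. Unnamed cluster 1, with AHNAK among its leading genes, held 541 nuclei of control dog 2 (52.0%) and is in neither class. SRRM2 was not past 4-fold (ratio to control dog 1 3.25), and DST no longer was without the ribosome-rich cluster, at 854 CPM. With the dominant features kept in the totals, AHNAK stayed past 4-fold lower. SYNE2, SRRM2, DST and PTPRB did not, at a log2 of -1.40, -0.53, -0.57 and -1.52. Against dog 1 alone AHNAK was 30.4 times lower and against dog 2 78.9.

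Across 19 gene lists, 526 distinct members were compared, and 71 of them (13.5%) stood past 4-fold higher and 34 (6.46%) lower, beside 7.93% and 4.16% of all compared features. Without control dog 1 the members past 4-fold were 156 and 82, and without control dog 2 the higher ones were 118. The lists were chosen with earlier results of these data known, so their counts describe and do not test. A gene that is low in the controls enters the comparison only through a high graft level, so counts and medians over compared members lean to the higher side.

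**Figure D4:**
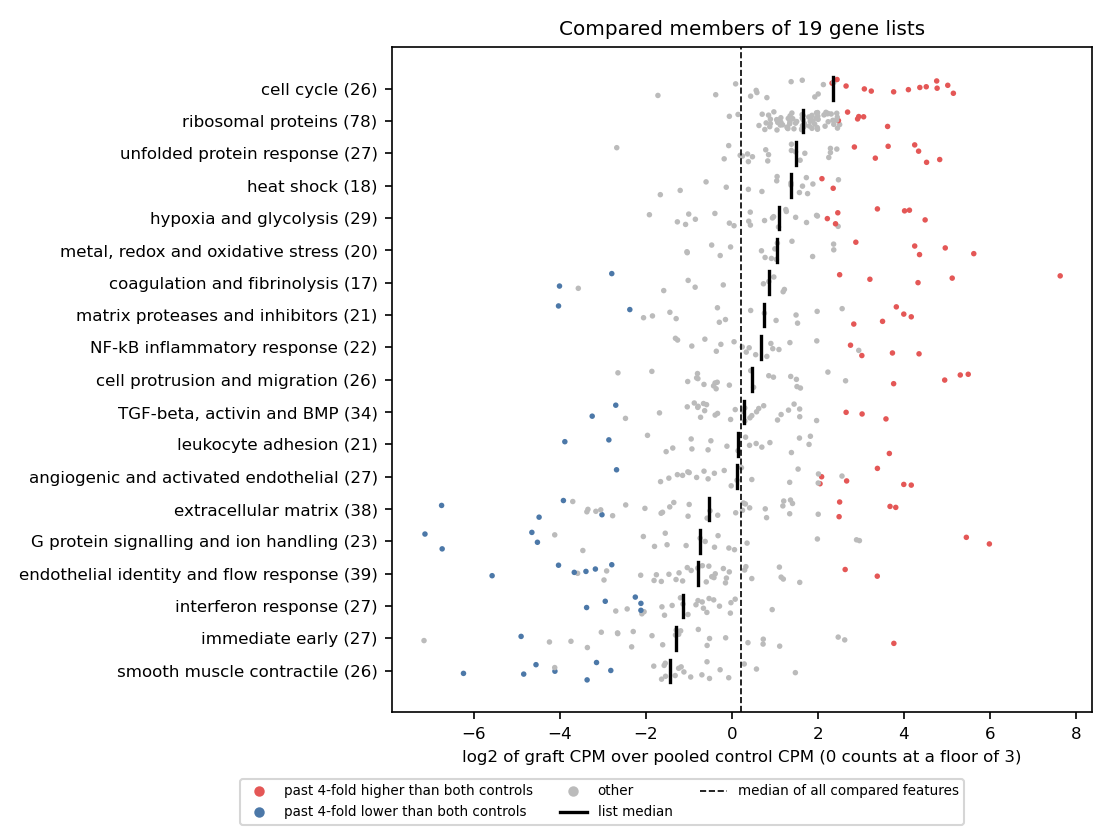
Each point is a compared member of 1 of 19 gene lists (number compared in parentheses), placed by its log2 of graft over pooled control CPM; thick bars are list medians and the dashed line is the median of all compared features, 0.21. Cell cycle genes stand highest, with a median of 2.35, and smooth muscle contractile genes lowest, with -1.43 (0.22 with the dominant features kept in the totals).

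Inflammatory signals controlled by NF-kB stood higher in the graft for a handful of secreted factors. Of 22 compared members 4 were past 4-fold higher and 0 lower (median log2 0.69). CSF3, the growth factor that calls up neutrophils, stood at 0 and 121 CPM in control dogs 1 and 2 and 999 CPM in the graft. The neutrophil chemokine CXCL8 stood at 0, 58.8 and 317 CPM and the monocyte chemokine CCL2 at 26.0, 79.4 and 388 CPM, and NFKBIE, an inhibitor of NF-kB, at 2.00, 5.88 and 24.2 CPM. IL6 stood at 0, 97.1 and 304 CPM, above both controls but within 4-fold of dog 2. CSF3, CXCL8 and IL6 had 0 UMIs in control dog 1, so that dog 2 supplied the whole control level. TNFAIP6, a hyaluronan-binding protein of inflamed tissue, lay between the controls at 0, 88.3 and 14.4 CPM, and so did TNFAIP2, another gene induced by tumour necrosis factor, at 2.00, 67.7 and 11.9 CPM. CSF3 was spread over nuclei, with 52.7% of its UMIs in the ribosome-rich cluster, 32.4% in endothelial-like cluster 4 and 10.9% in fibroblast-like cluster 9. Without the ribosome-rich cluster CSF3 stood at 673 CPM, and 2 of 23 compared members were past 4-fold.

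Of 21 compared leukocyte adhesion genes 1 stood past 4-fold higher and 2 lower, beside 7.93% and 4.16% of all compared features. The median log2 was 0.15, and -0.12 without control dog 1. The counts were 0 and 2 without the ribosome-rich cluster, and 4 and 0 of 18 with the dominant features kept in the totals. ACKR1, given above, was the higher one. The selectins that capture rolling leukocytes lay above both controls without passing 4-fold, SELP at 65.9, 377 and 681 CPM and SELE at 5.99, 521 and 638 CPM. Without the ribosome-rich cluster SELE stood at 447 CPM, between the controls, and SELP at 409.5 CPM, still above both. VCAM1, the endothelial ligand of leukocyte integrins, lay between the controls at 18.0, 315 and 35.5 CPM. For all 3, control dog 2 was far above control dog 1. The junction proteins JAM2 and MCAM were the lower ones, at 42.0, 11.8 and 2.02 CPM and 24.0, 20.6 and 3.12 CPM.

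Control dog 2 also held the most neutrophil and red cell RNA of the 3 libraries. Its 13 neutrophil markers summed to 1147 CPM, against 14.0 in dog 1 and 375 in the graft, and its red cell and platelet markers to 500.1, 0 and 4.13 CPM in that order. Immediate early genes, which follow minutes after a stimulus, had 27 compared members, with 1 past 4-fold higher, 1 lower and a median log2 of -1.29, which is 0.36 with the dominant features kept in the totals. The median was 1.01 without control dog 2. FOS stood at 16.0, 1618 and 49.7 CPM, FOSB at 2.00, 806 and 2.29 CPM and JUN at 336, 2009 and 33.9 CPM, each highest in control dog 2, and only JUN of these was past 4-fold below both. FOSL1, a later member of the same family, stood at 7.99, 29.4 and 103 CPM and the phosphatase DUSP5 at 0, 5.88 and 32.5 CPM. Summed over all 29 immediate early genes, control dogs 1 and 2 stood at 4056 and 13674 CPM and the graft at 3791 CPM. Distended vein of dog 1, which had another treatment, had a sum of 9955 CPM with neutrophil and red cell marker sums of 24.7 and 9.35 CPM. Whether blood cell RNA and immediate early levels are linked was not tested.

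Of 17 compared genes of clotting and fibrinolysis 5 were past 4-fold higher and 2 lower (median log2 0.86), or 9 and 0 of 16 with the dominant features kept in the totals. Beside TFPI2 and THBS1, SERPINE2, which inhibits thrombin and plasmin, stood at 4.00 and 8.83 CPM in control dogs 1 and 2 and 208 CPM in the graft. PLAUR, the urokinase receptor, stood at 5.99, 11.8 and 168 CPM in the same order. The lower 2 were VWF, the platelet-binding multimer, at 2787, 2083 and 362 CPM, and F8, its partner factor VIII, at 402, 203 and 20.0 CPM. Tissue factor, F3, lay between the controls at 4.00, 215 and 7.52 CPM. SERPINE2 was 74.9% in fibroblast-like cluster 9 and stood at 292 CPM without the ribosome-rich cluster, where 3 of 17 compared members were past 4-fold higher and 2 lower.

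Matrix proteases and inhibitors had 5 of 21 compared members past 4-fold higher and 2 lower (median log2 0.76). ADAMTS4, which cuts aggrecan and versican, had 0 control UMIs and stood at 64.5 CPM in the graft, at least 18.1-fold higher. ADAMTS9, of the same family, stood at 38.0, 50.0 and 686 CPM, ADAM12 at 36.0, 23.5 and 221 CPM and ADAM8 at 0, 5.88 and 27.1 CPM. ADAMTS9 lay 77.0% in endothelial-like cluster 4. TIMP3, a matrix-bound inhibitor, stood lower at 97.9, 85.3 and 5.69 CPM, opposite to TIMP1, and so did the membrane protease MMP16 at 559, 403 and 96.0 CPM, which came within 4-fold of control dog 2 without the ribosome-rich cluster (124 CPM).

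Cell cycle genes had the highest list median, 2.35. Of 26 compared members 13 stood past 4-fold higher, 0 lower, and 22 lay above both controls, but several, such as CDC6 and MCM5, were near 0 in the controls and passed the level of 10 CPM through the graft. The list has 46 genes in the files, and summed over all of them it stood at 707 and 471 CPM in control dogs 1 and 2 and 1739 CPM in the graft. Those named here open replication origins or supply and copy DNA. The licensing factor CDC6 stood at 2.00, 0 and 42.4 CPM, and the helicase subunits MCM5, MCM2, MCM3 and MCM4 at 0, 2.94 and 38.7 CPM, 2.00, 0 and 24.7 CPM, 5.99, 0 and 82.1 CPM and 22.0, 11.8 and 113 CPM. RRM2, which makes deoxynucleotides, stood at 4.00, 0 and 64.8 CPM, and the polymerase clamp PCNA at 24.0, 20.6 and 114 CPM. Control counts were small, with 1 UMI for CDC6 (ratio 35.6, 6.36 to 1410) and 19 for PCNA (ratio 5.04, 3.21 to 8.40). MKI67, a marker of cycling cells, went the other way on few UMIs, 6 and 4 in control dogs 1 and 2 and 40 in the graft. It stood at 11.99, 11.77 and 3.67 CPM in that order, 3.24 times lower in the graft (1.45 to 6.60). Its average level was too low to be among the compared features. With the dominant features kept in the totals its log2 was -0.05. CDC6 lay 48.9% in endothelial-like cluster 4 and 39.0% in the ribosome-rich cluster, and without the latter 9 of 23 compared members were past 4-fold. The cyclins CCND2 and CCND3 stood at 199.8, 88.3 and 47.1 CPM and 81.9, 44.1 and 51.5 CPM, the lowest of the compared members.

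Genes of the unfolded protein response, which restores folding in the endoplasmic reticulum, had 7 of 27 compared members past 4-fold higher and 0 lower (median log2 1.49). The chaperone-related CRELD2 stood at 4.00, 2.94 and 102 CPM, MANF at 28.0, 5.88 and 387 CPM, SDF2L1 at 14.0, 8.83 and 148 CPM and DNAJB11 at 7.99, 8.83 and 84.3 CPM. ASNS and PSAT1, which make asparagine and serine, stood at 2.00, 0 and 27.5 CPM and 0, 0 and 25.8 CPM, and the cystine importer SLC7A11 at 0, 8.83 and 68.2 CPM. DDIT3, the factor CHOP that marks prolonged stress, stood at 28.0, 38.2 and 28.4 CPM and PPP1R15A at 7.99, 174 and 11.7 CPM, neither above both controls. CRELD2 was 86.3% in the ribosome-rich cluster, and without it 3 of 25 compared members were past 4-fold, with CRELD2 at 19.9 and ASNS at 28.5 CPM. Heat shock genes had 2 of 18 past 4-fold higher and 0 lower (median log2 1.38), and 0 higher and 1 lower without that cluster. The mitochondrial chaperonin subunits HSPE1 and HSPD1 stood at 79.9, 73.5 and 331 CPM and 16.0, 73.5 and 219 CPM, and FKBP4, a partner of HSP90, at 9.99, 11.8 and 55.0 CPM. The cochaperones BAG3 and DNAJB4 lay below both controls, at 109.9, 182 and 44.0 CPM and 129.9, 347 and 94.9 CPM.

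Metal and redox genes had 5 of 20 compared members past 4-fold higher and 0 lower (median log2 1.05). Beside MT2A these were MT1E, another metallothionein, with 0 control UMIs and 73.7 CPM in the graft, and SLC39A14, a zinc and iron importer, at 4.00, 35.3 and 521 CPM. Thioredoxin, TXN, stood at 69.9, 32.4 and 405 CPM. The redox regulator NFE2L2 and its target NQO1 lay below both controls, at 545, 541 and 265 CPM and 24.0, 23.5 and 11.6 CPM. Hypoxia and glycolysis genes had 7 of 29 past 4-fold higher and 0 lower (median log2 1.09). The glucose transporter SLC2A1 stood at 4.00, 0 and 41.7 CPM, hexokinase HK2 at 0, 2.94 and 26.9 CPM and the lactate transporter SLC16A1 at 5.99, 0 and 57.9 CPM, and ENO1 and LDHA at 65.9, 44.1 and 304 CPM and 71.9, 53.0 and 300.1 CPM. HK2 lay 79.5% in fibroblast-like cluster 9. VEGFA, the endothelial growth factor raised by low oxygen, stood at 0, 26.5 and 112 CPM. PFKFB4, which regulates glycolytic flux, and GPI, the glucose phosphate isomerase, lay below both controls at 40.0, 14.7 and 7.89 CPM and 22.0, 70.6 and 17.3 CPM.

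Endothelial identity and flow genes stood lower on balance, with 6 of 39 compared members past 4-fold lower, 2 higher and a median log2 of -0.79 (0.86 with the dominant features kept in the totals). FOXC1, a transcription factor of vessel and valve development, showed the strongest ratio and close control levels: it stood at 1281 and 1127 CPM in control dogs 1 and 2 and 25.6 CPM in the graft, 47.6 times lower (41.7 to 54.5), called by DESeq2 (adjusted p 5.43e-06) and not by edgeR (adjusted p 0.607). In endothelial-like nuclei FOXC1 stood at 1294 and 1609 CPM in the controls (clusters 0, 4 and 5) and 22.1 CPM in the graft (mostly cluster 4). FOXC1 was a leading gene of cluster 0, so that these clusters are not independent of it. Control dog 2 had 50 endothelial-like nuclei (4.80%), while 541 of its nuclei (52.0%) lay in unnamed cluster 1. The leading genes of cluster 1 included JUN, FOSB, AHNAK and FOXC1. MMRN2, which tethers VEGF in the endothelial matrix, stood at 589, 218 and 34.7 CPM, and NOSTRIN, which traffics endothelial nitric oxide synthase, at 102, 73.5 and 8.62 CPM. That synthase, NOS3, was level at 112, 138 and 118 CPM, between the controls, and the flow-induced factor KLF2 lay between them too, at 89.9, 329 and 143 CPM. The higher 2 were FLRT2, an adhesion and guidance receptor, at 228, 55.9 and 1653 CPM, 74.2% in endothelial-like cluster 4, and PLVAP, the protein of fenestral diaphragms, at 24.0, 8.83 and 111 CPM. PLVAP stood at 11.6 CPM without the ribosome-rich cluster, between the controls.

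Activated and angiogenic endothelial genes had 6 of 27 compared members past 4-fold higher and 1 lower, with a median log2 of 0.12, close to that of all features. ANGPT2, the TIE2 ligand that loosens vessels, stood at 28.0, 29.4 and 119 CPM, the integrin subunit ITGAV at 124, 132 and 542 CPM, and ESM1, a tip cell proteoglycan, had 0 control UMIs and 22.8 CPM in the graft. The semaphorin receptor PLXND1 was the lower one, at 278, 400.1 and 51.1 CPM, and the Notch ligand DLL4 lay below both controls with 6 and 11 control UMIs and 70 graft UMIs, or 6.42 CPM.

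Smooth muscle contractile genes had the lowest list median, -1.43 (0.22 with the dominant features kept in the totals), with 7 of 26 compared members past 4-fold lower, 0 higher and 23 below both controls. MYH11, the smooth muscle myosin heavy chain, stood at 633 and 318 CPM in control dogs 1 and 2 and 6.70 CPM in the graft, 75.5 times lower (58.8 to 98.2). The actin ACTA2 stood at 189.8, 82.4 and 14.2 CPM, the kinase MYLK at 116, 100 and 6.33 CPM, the actin nucleator LMOD1 at 119.9, 76.5 and 3.58 CPM and SYNPO2 at 189.8, 82.4 and 6.24 CPM. Cluster 7, smooth muscle-like and led by MYH11 and TNC, held 36 and 17 control nuclei and 31 graft nuclei. Within those nuclei MYH11 stood at 12737 (95% exact Poisson interval 11346 to 14253) and 14632 CPM (11809.8 to 17925) in the controls and at 535 CPM (368 to 751) in the graft. ACTA2 in the same nuclei stood at 3897, 3304 and 1832 CPM. Both were below the controls within these nuclei, ACTA2 by less than MYH11, though both genes also helped to define the cluster. MYL6, a light chain also found outside muscle, lay above both controls without passing 4-fold, at 228, 109 and 501 CPM, and at 83.4 CPM without the ribosome-rich cluster. PPP1R12B, a subunit of myosin phosphatase, lay above both at 124, 153 and 202 CPM.

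Matrix genes went both ways, with 4 of 38 compared members past 4-fold higher and 4 lower (median log2 -0.54, 0.21 without control dog 2 and 1.11 with the dominant features kept in the totals). Components of collagen fibrils or bound to them stood lower: COL14A1 at 855, 447 and 30.9 CPM, COL3A1 at 308, 785 and 61.8 CPM, and TNXB, which spaces collagen fibrils, at 438, 1394 and 54.7 CPM. COL14A1 lay 51.0% in endothelial-like cluster 4 of the graft. Beside THBS1, the higher ones were FKBP10, a chaperone of collagen, at 4.00, 5.88 and 67.0 CPM, the basement membrane collagen COL15A1 at 32.0, 38.2 and 195 CPM, and HAS1, a hyaluronan synthase, at 0, 14.7 and 76.3 CPM. HAS1 lay 83.2% in fibroblast-like cluster 9. Fibroblast markers, which include COL3A1 and TNXB, summed to 1419 and 5589.6 CPM in the controls and 1010.1 CPM in the graft. COL14A1, unlike that sum, was higher in control dog 1 than in dog 2. The part of fibroblast content in these results was not tested. Within fibroblast-like nuclei SCARA5 stood at 4861, 4339.5 and 20.3 CPM. Cluster 3, led by SCARA5, held nearly all control nuclei of that class and cluster 9 nearly all of the graft's.

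Interferon response genes stood lower without exception among those past 4-fold, 5 of 27 compared members against 0 higher, with 20 below both controls and a median log2 of -1.13 (0.51 with the dominant features kept in the totals). The antiviral GTPase MX1 stood at 34.0, 20.6 and 2.75 CPM, the large ubiquitin ligase RNF213 at 259.8, 297 and 35.8 CPM, the RNA sensor IFIH1 at 42.0, 41.2 and 9.63 CPM, USP18 at 28.0, 38.2 and 6.79 CPM and PARP9 at 22.0, 23.5 and 5.23 CPM. The controls lay closer to each other than to the graft for these 5 genes. STAT2, a transducer of interferon signals, and IFIT5, an RNA-binding effector, lay above both controls at 34.0, 32.4 and 35.2 CPM and 18.0, 2.94 and 22.8 CPM. The count past 4-fold lower was 5 of 27 without the ribosome-rich cluster too.

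In the TGF-beta family, 3 of 34 compared members stood past 4-fold higher and 2 lower (median log2 0.28). The ligand BMP2 stood at 2.00, 14.7 and 85.8 CPM, ID1, a target of BMP signals, at 61.9, 38.2 and 428 CPM and LTBP1, which holds latent TGF-beta in the matrix, at 50.0, 26.5 and 256 CPM. ID1 was 65.2% in the ribosome-rich cluster and stood at 212 CPM without it, no longer past 4-fold. TGFB3 and the BMP inhibitor CHRDL1 were the lower ones, at 20.0, 14.7 and 2.75 CPM and 46.0, 188 and 10.9 CPM. Among 23 genes of G protein signals and ion handling, 2 stood past 4-fold higher (RGS4 and KCNH1) and 4 lower, with a median log2 of -0.74 (0.91 with the dominant features kept in the totals). Beside ATP2A3 and SCN1A the lower ones were the potassium channel KCNN3 at 358, 503 and 18.2 CPM and the cation channel TRPM3 at 7.99, 73.5 and 1.38 CPM. Of 26 genes of protrusions and migration, 4 stood past 4-fold higher and 0 lower, PHLDA1, MYO10, GAP43 and the formin DIAPH3 (16.0, 14.7 and 210.4 CPM). The median log2 of that list was 0.48, and -0.04 without control dog 1. PODXL, a sialomucin of endothelium, and the actin-binding TMSB4X lay below both controls at 148, 70.6 and 18.6 CPM and 73.9, 58.8 and 18.7 CPM, and both were past 4-fold lower without the ribosome-rich cluster.

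Ribosomal protein genes lay above both controls in 76 of 78 compared members, beside 46.7% of all compared features (median log2 1.66). Of the 78, 6 were past 4-fold higher, near the 7.93% of all compared features. With the dominant features kept in the totals 72 of 77 were, beside 3528 of 9196 features. The other 2 members, RPS21 and RPS28, lay between the controls at 446, 29.4 and 267 CPM and 753, 106 and 544 CPM. Without the ribosome-rich cluster 0 of 77 were past 4-fold. RPS2 stood at 209.8, 38.2 and 1177 CPM and at 103 CPM without that cluster, and RPL22L1 at 18.0, 8.83 and 176 CPM and 52.4.

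Counts past 4-fold for the remaining lists also moved with the dominant features kept in the totals, where 3528 of 9196 compared features stood higher and 58 lower. The contractile list then had 1 of 24 members higher and 4 lower, the endothelial identity list 5 and 2 of 39. The interferon list had 1 and 0 of 19, the matrix list 7 and 2 of 36 and the G protein list 5 and 3 of 19. The immediate early, NF-kB and angiogenic lists had 4 of 26, 8 of 22 and 10 of 25 members higher and 0 lower. TGF-beta and protrusion lists had 12 of 32 and 8 of 23 higher, again with 0 lower. Cell cycle, unfolded protein and heat shock genes had 18 of 24, 18 of 26 and 12 of 18 higher and 0 lower. Hypoxia and metal genes had 15 of 28 and 12 of 17 higher and 0 lower, and the proteases 11 and 1 of 21.

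Marker lists place these differences beside the cells the libraries held. The labels list endothelium, smooth muscle, fibroblasts and myeloid cells, and all 15 endothelial markers were detected in each of the 3 libraries. Their sum was 11915 and 7155 CPM in the controls and 4509.6 CPM in the graft. Smooth muscle markers summed to 1357, 733 and 105 CPM, with all 11 detected in the graft. Macrophage markers summed to 469.6, 518 and 317 CPM, and C1QB and C1QC had 0 UMIs in all 3 libraries. T cell markers summed to 2.00, 121 and 59.6 CPM. Of 15 lists, 7 had a sum below both controls in the graft and 2 above both, or 1 and 10 with the dominant features kept in the totals. The graft also held a cluster of 85 neutrophil-like nuclei (3.14%, 95% exact interval 2.52 to 3.87), led by IL1R2 and AQP9, of which the controls had 0 of 773 and 0 of 1041, which allows shares of up to 0.388% and 0.288%. Control dog 2 had the higher summed level of neutrophil markers all the same, as given above, and a cluster from 1 library may be that library. A further 417 graft nuclei lay in cluster 2, led by NRG1, ARHGAP15 and PTPRC, which had 10 of 13 neutrophil and 10 of 12 T cell markers and stayed unnamed. CXCL8 lay 22.0% in the neutrophil-like nuclei and 20.5% in cluster 2. Shares of other classes are not compared between libraries, since the clusters were led by genes that differ between them.

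**Figure D5:**
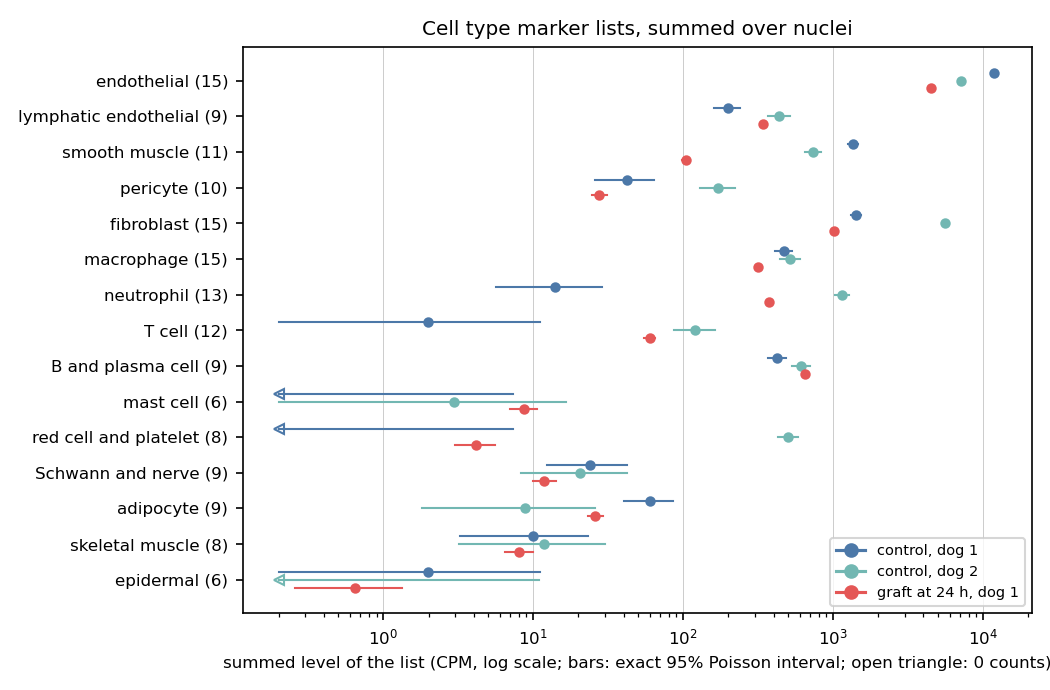
Summed level of each cell type marker list (number of listed genes found in parentheses) in control dog 1, control dog 2 and the graft, in CPM on a log scale; bars are exact 95% Poisson intervals, which cover counting error only, and open triangles mark 0 counts. On these totals, smooth muscle and endothelial sums are lowest in the graft, and neutrophil and red cell sums are highest in control dog 2.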

How the data were processed

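The authors deposited raw UMI counts per barcode and feature for 5 single-nucleus RNA libraries. Per the file headers they came from Cell Ranger 7.0.0, which the submitters' processing notes also name. A genome build is not given in these sources. No doublet caller was run and free RNA was not corrected. Barcodes with 100 or more detected features were kept, and 24 unassigned features and 4 dominant LOC features were left out. Counts were summed per library and scaled to CPM. A group at 0 was put at a floor of 3 counts. Sums held 500464 and 339917 UMIs in the controls and 10899093 in the graft, so the controls set the precision, and counting intervals (95%) cover counting error only.

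Features averaging 10 CPM or more were compared. edgeR 4.0.16 (quasi-likelihood, TMM, two-sided, Benjamini-Hochberg, 0.05) was fitted over all 5 libraries, with the lone graft assumed to vary like the other groups, and DESeq2 1.42.0 was the alternative tool. The edgeR fit was tested on simulated data. At the spread fitted here it missed most genes changed by a log2 of 3, so an absence of calls does not show equal levels. The 2 controls are separate dogs. Nuclei were clustered with scanpy 1.11.5 (2000 variable genes, 20 components, 15 neighbours, resolution 0.8), and a cluster was named only from listed markers. Symbols matched a RefSeq gene table (UU_Cfam_GSD_1.0) for 33883 of 35555 features.

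The text names the 12 symbol-bearing features past 4-fold with the most extreme counting bound in each direction, the 5 largest CPM differences each way, the 2 highest and 2 lowest members of each list, and VCAM1, SELE, IL6, MYH11, ACTA2, MKI67, KLF2, NOS3 and FOXC1; 1 further gene of that rule is not reported here. Other list members were named after their values were seen. Lists and this rule were chosen with earlier results of these data known. Alternatives covered scaling, filters, fold, thinning, left-out libraries, a replicate block and the tool.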

Additional observations from a re-analysis of the deposited data

Results flagged for a closer look

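The 12 genes ranked highest in the graft were also read in the 2 distended libraries, which the comparison of graft and control does not use. Their summed level was 125 CPM in distended vein of dog 1 and 1073 CPM in distended vein of dog 2, above the 81.9 and 94.1 CPM of control dogs 1 and 2. In the graft it was 5429 CPM. Of the 12 genes, 6 lay above both controls in distended dog 1 and 11 in distended dog 2. Among those in distended dog 1, RGS4, LTK and GAP43 had 0 control UMIs and stood at 0.668, 1.34 and 3.34 CPM. These levels lie under the 5.99 and 8.83 CPM that a count of 0 allows in control dogs 1 and 2. GAP43 in distended dog 2 stood at 3.58 CPM, the level of 1 UMI in that library. In distended dog 2, NME1 stood at 229 CPM against 223 CPM in the graft, and the other 11 genes stood below the graft. Of the genes with the largest gains, RPS20 stood at 2926 CPM there against 1899.9 CPM in the graft. Ribosomal protein genes made up 0.540% and 9.29% of UMIs in these distended libraries, and their part in the sums was not tested.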

How the results depend on the processing

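The count of features past 4-fold (837 higher, 439 lower) moved to 3528 and 58 with the 4 dominant features kept in the totals, to 2131 and 1231 at a fold of 2 and to 351 and 162 at a fold of 8. It was 533 higher at an average of 20 CPM or more, and 921 lower with no filter on low counts, where higher features made up 54.2% of those past 4-fold. With TMM it was 1072 and 334. Leaving out a control gave 1271 to 1557 higher and 716 to 1105 lower, and 118 to 156 higher and 50 to 82 lower members of the pathway lists. List medians changed sign for leukocyte adhesion (-0.026 with the graft thinned to the controls' mean total, -0.12 to 0.57 without a control), immediate early (-2.01 to 1.01), matrix (-0.34 to 0.21) and protrusion genes (-0.040 to 0.97), all without a control; the cause was not tested. Marker lists above and below both controls numbered 10 and 1 with the dominant features kept. Among values of named genes under the alternatives, 419 stayed within the spread and 96 moved.

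DESeq2 called 104 features, and edgeR with no filter called 307. Leaving out a library gave 0 to 529 edgeR calls, with 529 without distended dog 1, 471 without distended dog 2 and 0 without either control (781 and 623 unadjusted). With the replicate block, edgeR called 0 features (712 unadjusted); dog differences in control and distended vein correlated at -0.315 over 10648 genes, so crossed numbers were also tried after seeing the data, with 0 calls (1085 unadjusted). Control depth, at 2.00 and 2.94 CPM per UMI, limits what could be seen in genes near 10 CPM.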
